A study of Mus musculus with 4 samples.

Results

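A set of 10 genes of the circadian clock and its output arm were followed in cultured mouse hepatic stellate cells: Arntl (also called Bmal1), Per1, Per2, Per3, Cry1, Nr1d1, Nr1d2, and the PAR bZIP factors Dbp, Tef and Hlf. They were chosen by name, with earlier results of these arrays already known, and are 10 of 26683 genes on the array, read by 18 of 41174 probes. Because of that choice, the levels and differences given for them are descriptions and carry no test.

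The cells were IMS/N, stellate cells of a normal 129/Sv mouse liver made immortal with SV40, and the study looked at how conditioned medium from adipose tissue-derived stem cells (ADSC) affects them when the cytokine IL-17A is present. Total RNA was taken from 4 cultures of this one line: no addition (untreated), recombinant murine IL-17A (written IL17A), ADSC medium, or IL17A together with the medium. The ADSC came from inguinal subcutaneous fat of male C57BL/6J mice 8 to 10 weeks old. Doses, exposure times and the hour of harvest are not given in the sources used here. Each group had 1 array, so no group has a replicate spread and no p-value is given. Slide 1 carried the untreated and IL17A arrays and slide 2 the pair with medium. Medium therefore cannot be told apart from slide, whereas each IL17A comparison lies within a slide. Of 43379 non-control spots, 58.1% to 60.5% were well above background on an array, and 0 were saturated.

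The clock of a mammalian cell is a loop of transcription factors. ARNTL pairs with CLOCK on E-box elements and switches on the Per and Cry genes, whose proteins return to inhibit that pair, while NR1D1 and NR1D2 repress Arntl through ROR elements. The same E-boxes drive the PAR bZIP factors DBP, TEF and HLF, which bind D-box elements and carry the rhythm to genes of metabolism and detoxification, a function best known from liver.

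The promoters of the 4 members whose signal varied most over the arrays are shown, each with its matches to the elements searched below. Each window runs from 250 bases before to 50 bases after the RefSeq start site (GRCm38.p6, all on the minus strand, written 5′ to 3′), with the matched elements in capitals. The Hlf window is chr11:90390868-90391167, that of Cry1 is chr10:85185005-85185304, that of Per3 is chr4:151044616-151044915 and that of Nr1d1 is chr11:98775328-98775627.
Hlf: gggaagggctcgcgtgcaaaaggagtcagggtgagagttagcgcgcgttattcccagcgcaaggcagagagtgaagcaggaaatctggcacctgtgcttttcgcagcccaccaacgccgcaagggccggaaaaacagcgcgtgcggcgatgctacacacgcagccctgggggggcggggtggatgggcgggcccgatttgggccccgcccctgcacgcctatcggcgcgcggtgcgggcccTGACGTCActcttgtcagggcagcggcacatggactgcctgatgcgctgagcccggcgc
Cry1: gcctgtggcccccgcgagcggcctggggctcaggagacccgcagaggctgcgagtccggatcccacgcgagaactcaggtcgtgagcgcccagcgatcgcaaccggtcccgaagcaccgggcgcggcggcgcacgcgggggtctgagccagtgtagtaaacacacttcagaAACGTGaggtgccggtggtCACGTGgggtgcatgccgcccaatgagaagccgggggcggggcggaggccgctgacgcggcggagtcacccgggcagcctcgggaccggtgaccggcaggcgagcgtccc
Per3: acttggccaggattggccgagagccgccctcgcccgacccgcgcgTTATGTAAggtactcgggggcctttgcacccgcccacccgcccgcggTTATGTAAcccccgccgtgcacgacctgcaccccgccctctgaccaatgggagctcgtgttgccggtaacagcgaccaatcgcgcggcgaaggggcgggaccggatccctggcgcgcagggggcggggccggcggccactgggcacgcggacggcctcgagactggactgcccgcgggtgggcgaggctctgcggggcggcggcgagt
Nr1d1: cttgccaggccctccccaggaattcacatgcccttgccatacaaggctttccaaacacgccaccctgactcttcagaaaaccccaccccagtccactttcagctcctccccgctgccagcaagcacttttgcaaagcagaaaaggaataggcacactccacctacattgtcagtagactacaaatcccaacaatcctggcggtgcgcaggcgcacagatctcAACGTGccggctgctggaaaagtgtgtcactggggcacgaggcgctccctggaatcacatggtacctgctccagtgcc

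Both strands were searched for 5 elements, the E-box CACGTG, the E-prime box CACGTT, the D-box TTANGTAA, the ROR element core TAGGTCA and the cAMP response element TGACGTCA. In the Hlf window the capitals mark a cAMP response element, whose first base lies at -9 from the start site. The Cry1 window held an E-box at -60 and an E-prime box at -79, the latter read on the other strand as AACGTG. Per3 had 2 copies of the D-box, at -205 and -158, and Nr1d1 had an E-prime box at -28.

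Among all 32851 windows of that length, 7.15% held the E-box, 4.68% the E-prime box, 2.32% the D-box, 2.61% the ROR core and 1.79% the cAMP response element. RefSeq entries were found for 9 of the 10 members, in 12 windows, and Per2 was not matched. The E-box was found in 3 of those 9 genes (Cry1, Per1 and Tef), the E-prime box in 2, and each of the other elements in 1, the ROR core being that of Arntl. Counted by window, as the shares above are, the E-box was in 4 of 12, the E-prime box in 2 and each other element in 1. Neither the Dbp window nor the Nr1d2 window held any of the 5 elements. The median GC content was 63.7% in the member windows and 52.7% over all windows. A match describes letters in a window and does not show that a factor binds there.

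Below, a level is the quantile-normalized log2 signal of a gene's brightest probe, and a difference is the level on one array minus that on another. Levels are not compared between genes, since probes differ in brightness. The only error available is technical: replicated spots of 245 probes gave an SD of a log2 difference of 0.221 at levels below 5, 0.118 from 5 to 7 and 0.0638 above 7, which holds no spread between cultures. Calls of higher or lower needed a difference of at least 2-fold and, on the brighter of the 2 arrays, a probe well above background. All 10 members were well above background on all 4 arrays by their brightest probe.

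Hlf was the member that varied most, with its highest level under IL17A and its lowest under medium. Its level was 5.98 untreated, 8.02 with IL17A, 3.50 with medium and 4.92 with both. Before normalization the deposited signals of that probe were 69.5, 255, 10.2 and 32.1, in the same order of arrays. Every neighbouring pair in the order IL17A, untreated, both, medium was further apart than 2 technical SDs. The probe (A_51_P134228) lies at chr11:90199978-90200037 on the minus strand (mm9, per the file headers), and Hlf had no other probe on the array.

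With IL17A, Hlf was higher by 2.04 on the log2 scale (4.11-fold) than in untreated cells, and by 1.42 (2.67-fold) when medium was present on both arrays. The medium differences of Hlf were -2.48 against untreated cells (5.59-fold lower) and -3.10 within IL17A (8.59-fold lower). With both agents it was still below untreated cells, by a difference of -1.06. By size, these put Hlf at rank 91 from the top of 15802 genes for IL17A against untreated and at rank 11 from the bottom of 15818 for medium added to IL17A. The range of Hlf over the 4 arrays was 4.52, which was rank 13 among 14480 genes above background on all arrays, whose median range was 0.39. The difference of the 2 IL17A differences was -0.62, at percentile 5.30 of those 14480 genes.

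**Figure D1:**
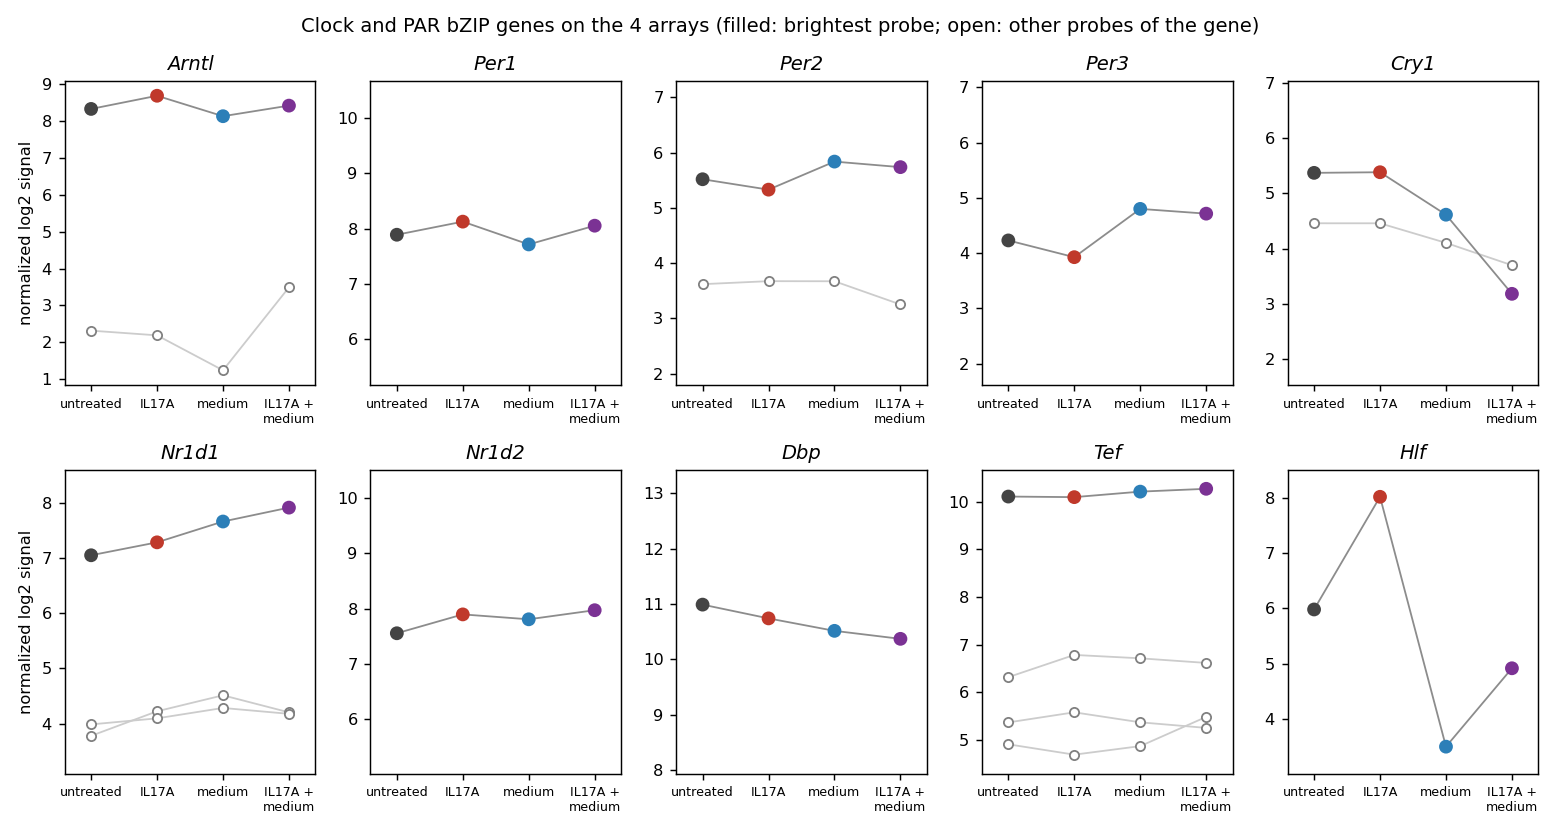
Normalized log2 signal (vertical axis) of each of the 10 genes on the 4 arrays (horizontal axis), 1 array per group, with the brightest probe filled and other probes of the gene open. Hlf runs from 3.50 with medium to 8.02 with IL17A and Cry1 drops to 3.18 with both agents, while Tef stays between 10.09 and 10.27. The vertical scale differs between panels.

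Of the other PAR bZIP genes, Dbp was modestly lower in each treated culture and Tef was nearly level. Dbp, the D-box activator with strongly rhythmic expression in liver, had levels of 10.99 untreated, 10.74 with IL17A, 10.51 with medium and 10.37 with both. Each step of that order was larger than 2 technical SDs, and Dbp with both agents differed from untreated cells by -0.62. Scaled to the median of all probes, the Dbp difference for IL17A alone shrank from -0.25 to -0.015, within 1 technical SD of 0. Tef, the thyrotroph embryonic factor, had levels of 10.10, 10.09, 10.21 and 10.27. No neighbours in the order of the Tef levels differed by more than 2 technical SDs, although the array with both agents exceeded the untreated array by 0.16. The sign of the Tef difference for IL17A alone, -0.01, turned under every alternative scaling and with the mean of its probes. The 3 PAR bZIP genes thus differed in size: with medium alone, Hlf differed from untreated cells by -2.48, Dbp by -0.47 and Tef by 0.10. That Tef value lay within 2 technical SDs, and its other probes gave 0.40, 0.00 and -0.04, so its sign is not resolved.

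The probe that crosses a splice junction in Tef shows how these genes are read on the array, since its 60 bases span 2106 bases of the genome. It lies at chr15:81651816-81653921 on the plus strand (mm9).
Tef probe A_52_P173309: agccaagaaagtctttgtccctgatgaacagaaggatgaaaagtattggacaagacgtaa
The levels of that probe were 5.37, 5.58, 5.37 and 5.25 in the order untreated, IL17A, medium and both. A further Tef probe (A_52_P658073), at 4.91, 4.69, 4.87 and 5.48, was highest with both agents, and the other one (A_51_P450561), at 6.32, 6.78, 6.71 and 6.61, was highest with IL17A. The 4 Tef probes thus gave different orders of the arrays.

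Cry1, a repressor of the ARNTL and CLOCK pair, was the other member that crossed 2-fold. Its brightest probe had levels of 5.37 untreated, 5.38 with IL17A, 4.62 with medium and 3.18 with both. The untreated and IL17A arrays were within 1 technical SD of each other, at a difference of 0.01 whose sign turned under 75th percentile scaling and under scaling to the median of spots above background. The medium differences of Cry1 were -0.76 against untreated cells and -2.20 (4.59-fold lower) within IL17A. Adding IL17A to medium went with a difference of -1.43 (2.70-fold lower). The difference of differences was -1.44, at percentile 0.338 of 14480 genes. On the dimmer Cry1 probe, described below, it was -0.40, within 2 technical SDs (1 SD being 0.312). Over the alternative settings it ran from -1.50 to -0.31, the latter under normexp background correction. The brightest probe was itself dim with both agents, at a deposited signal of 10.1.

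Both Cry1 probes had their lowest value on the array with both agents, but they did not give the same size. The dimmer probe (A_51_P302204) had levels of 4.46, 4.46, 4.11 and 3.70, and its difference between both agents and IL17A was -0.76. With the mean of both probes, Cry1 within medium differed by -0.92 with IL17A, short of 2-fold. No difference on this probe reached 2-fold. It lies at chr10:84606495-84606554 and the brighter one (A_52_P420500) at chr10:84594731-84594790, on the minus strand (mm9), 11764 bases apart. The GC content was 23.3% in the brighter probe and 43.3% in the dimmer one. The part of GC content in the gap between them was not tested. The dimmer probe is printed because the smaller estimate rests on it, and all 3 of its forward frames are free of stop codons.
Cry1 probe A_51_P302204: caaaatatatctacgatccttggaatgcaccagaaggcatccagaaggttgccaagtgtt

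The period genes were steadier than Cry1. Per1, a direct E-box target, had levels of 7.89 untreated, 8.13 with IL17A, 7.72 with medium and 8.05 with both. Both arrays with IL17A lay above their partners without it, by 0.24 and 0.34. Per2 had levels of 5.52, 5.33, 5.84 and 5.74 in the same order of arrays. Neighbours in the Per2 order lay within 2 technical SDs of each other, and only the wider gaps exceeded them, such as 0.41 between both agents and IL17A. The dimmer Per2 probe (A_52_P536869), at 3.62, 3.67, 3.67 and 3.25, gave -0.42 for that same comparison, so the 2 probes of Per2 pointed opposite ways.

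Per3, the period gene least needed for the loop itself, had levels of 4.23 untreated, 3.93 with IL17A, 4.80 with medium and 4.72 with both. Both medium arrays stood above both arrays without medium, by 0.57 without IL17A and by 0.79 with it. The medium arrays did not differ from each other beyond 2 technical SDs, and neither did the untreated and IL17A arrays. Under 75th percentile scaling the second difference became 1.01 and passed 2-fold. Per3 was dim, with deposited signals from 13.9 to 28.3.

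The nuclear receptor Nr1d1, also known as REV-ERB alpha, which represses Arntl, was lowest in untreated cells and highest with both agents. Its levels were 7.05 untreated, 7.28 with IL17A, 7.66 with medium and 7.91 with both, every step being larger than 2 technical SDs. The array with both agents exceeded the untreated array by 0.86, the widest difference among members that stayed under 2-fold. The brightest probe spans 503 bases of the genome and so crosses a splice junction, at chr11:98630526-98631028 on the minus strand (mm9).
Nr1d1 probe A_51_P223776: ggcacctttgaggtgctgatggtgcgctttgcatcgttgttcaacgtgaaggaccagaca
On the other 2 probes the order was partly different. Their levels were 3.78, 4.22, 4.51 and 4.20 (A_52_P130952) and 3.99, 4.10, 4.28 and 4.18 (A_52_P130961), each lowest in untreated cells and highest with medium alone. With the mean of all 3 probes, the IL17A difference within medium changed from 0.25 to -0.05.

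Nr1d2, the paralogue of Nr1d1, had levels of 7.56 untreated, 7.90 with IL17A, 7.81 with medium and 7.97 with both. The untreated array was the lowest, and the 3 treated arrays had neighbours within 2 technical SDs. Arntl, the positive arm that both receptors repress, had levels of 8.33, 8.69, 8.14 and 8.42. IL17A arrays were above their partners by 0.36 and 0.29, and the medium arrays differed from theirs by -0.20 and -0.27, of which the former turned to 0.01 when arrays were scaled to the median of all probes. With the mean of both Arntl probes, the medium difference within IL17A turned to 0.52 and the IL17A difference within medium became 1.27, past 2-fold. The untreated array and the array with both agents did not differ beyond 2 technical SDs. Its main probe, at chr7:120456978-120457037 on the plus strand (mm9), is printed as the only Arntl probe above background on every array, since the other (A_52_P24690) passed on 1 array.
Arntl probe A_52_P267651: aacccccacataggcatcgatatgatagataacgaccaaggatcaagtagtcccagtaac

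For IL17A against untreated cells, 1 member (Hlf) was at least 2-fold higher and 0 were lower, beside 2.18% of all 15802 measured genes higher and 2.3% lower. Within medium, 1 was higher (Hlf) and 1 lower (Cry1), beside 2.86% and 1.82% of 16062 genes. The median difference of the 10 members was 0.12 without medium and 0.11 with it, against 0.00027 and -0.030 over all measured genes. In each of these comparisons 6 members lay above 0 and 4 below. Over all genes, 345 were higher and 363 lower without medium, and 460 and 292 with it. Under 75th percentile scaling these became 263 and 533, and 723 and 171, while the members past 2-fold stayed at 1 and 2.

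For medium against untreated cells, 0 members were higher and 1 (Hlf) was lower, beside 2.45% and 2.98% of 16092 genes. For medium added to IL17A, 0 were higher and 2 lower (Hlf and Cry1), beside 3.23% and 3.12% of 15818 genes. The array with both agents, set against untreated cells, had 0 higher and 2 lower (Cry1 and Hlf), beside 3.38% and 4.29% of 16239 genes. Member medians were -0.036, 0.0012 and 0.16 in these 3 comparisons, against 0.040, 0.022 and 0.030 over all genes. The counts over all genes were 394 higher and 479 lower, 511 and 494, and 549 and 697. With 75th percentile scaling the first 2 pairs became 269 and 655, and 775 and 372. The last comparison held the members nearest to the 2-fold line, with Hlf just past it at -1.06 and Nr1d1 short of it at 0.86.

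**Figure D2:**
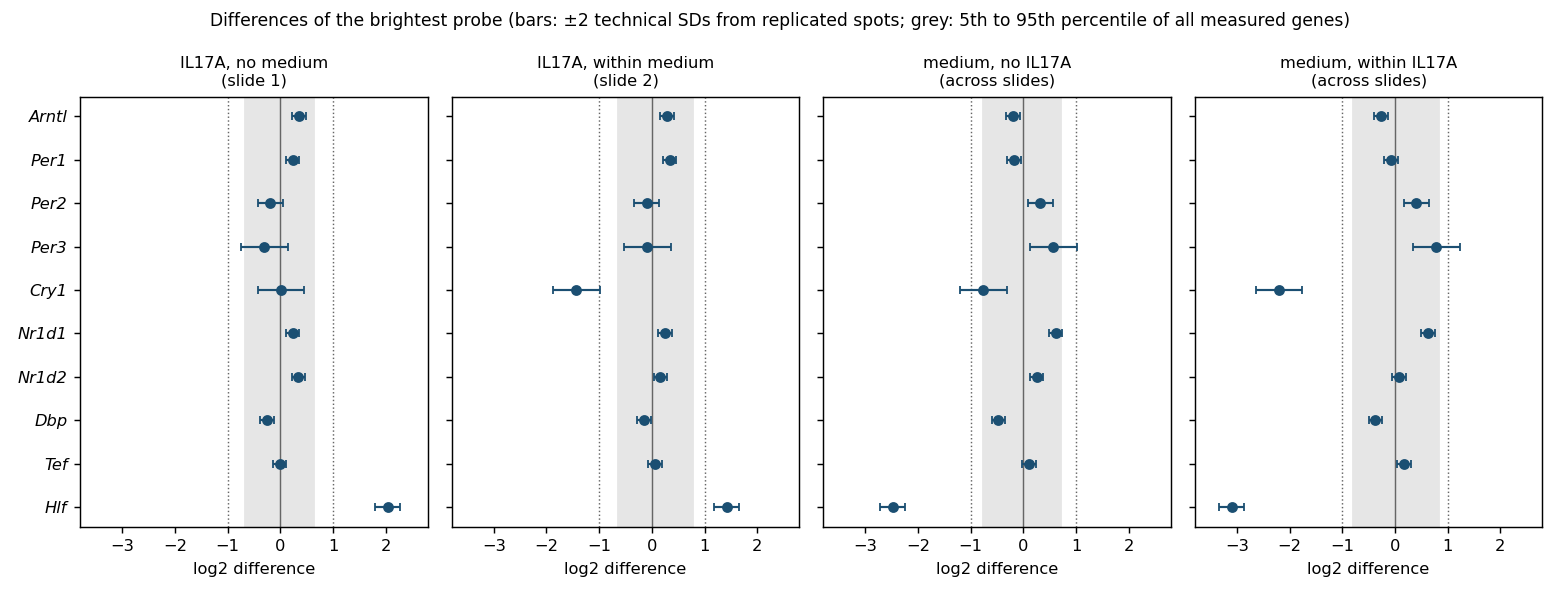
Log2 difference (horizontal axis) of the brightest probe of each gene in 4 comparisons, with bars of 2 technical SDs, dotted lines at 2-fold and a grey band from the 5th to the 95th percentile of all measured genes. Hlf lies outside the dotted lines in all 4 panels and Cry1 in the panels that hold the array with both agents, and the other 8 genes lie inside them.

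Differences beyond 2 technical SDs were seen in 6 members for IL17A alone and in 7 for IL17A within medium, beside 47.8% and 43.5% of all measured genes. For medium alone there were 9, for medium within IL17A 8 and for both against untreated 8, beside 56.7%, 58.5% and 61.5%. With so many genes past this mark, the counts single out nothing about the members. If spots not above background are kept in the technical SD, it becomes 0.431 at levels below 5 and the last 3 counts become 7 each, beside 50.1%, 51.5% and 54.6%. This spread comes from spots of the same RNA, so these counts do not speak to other cultures.

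The IL17A difference was measured on separate pairs of arrays with and without medium, and so was the medium difference with and without IL17A. The IL17A difference had the same sign in both settings in 8 of 10 members and in 62.4% of 14480 genes, the exceptions being Cry1 and Tef, whose differences without medium were 0.01 and -0.01. The medium difference had the same sign with and without IL17A in 10 of 10 members and in 72.7% of those genes. Both medium differences set the same slide against the other, so an effect of slide would enter both alike. The same-sign counts also depend on the setting. Scaled to the median of all probes, 6 of 10 members kept the same sign for medium, without Arntl, Per1, Nr1d2 and Tef, and with the mean of probes 8 did, without Arntl and Per2. For IL17A the count ran from 7 to 9, and under 75th percentile scaling its exceptions were Per2 and Per3 in place of Cry1 and Tef. In the reported setting the pair of differences of a member, apart from Hlf and Cry1, differed by at most 0.22. Elsewhere the gap reached 1.16 for Arntl with the mean of probes, 0.65 for Per3 under 75th percentile scaling and -0.57 for Nr1d2 under median scaling.

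**Figure D3:**
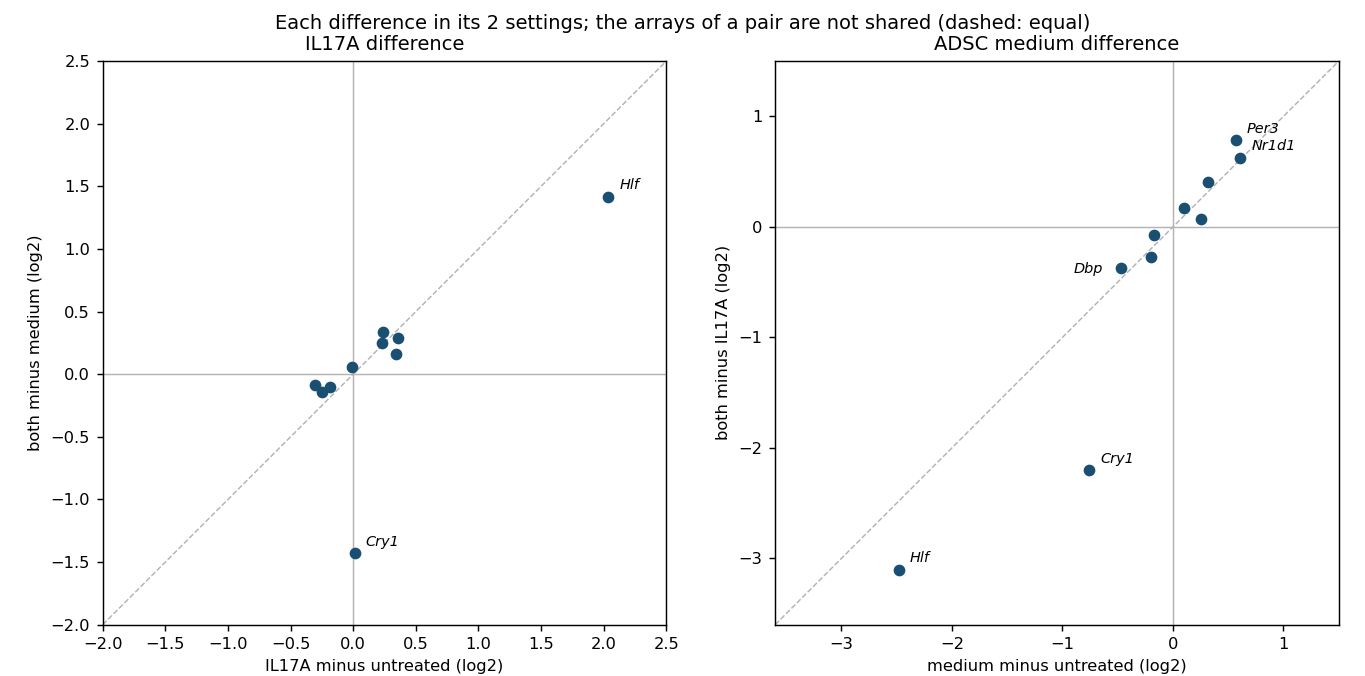
Left, log2 difference for IL17A without medium (horizontal) against that within medium (vertical). Right, log2 difference for medium without IL17A (horizontal) against that within IL17A (vertical). Each point is 1 gene, and the dashed line marks equal differences. Most points lie near that line, Cry1 lies below it in both panels, and Hlf is at the far end of each.

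The authors' deposited table of 861 probes higher with IL17A than untreated holds 1 of the 18 member probes, that of Hlf. In the authors' deposited table of 1193 probes higher with IL17A than with IL17A plus medium, 2 member probes are listed, those of Hlf and the brighter Cry1 probe. For scale, the array has 41174 probes in all. Both lists come from this same series, so they are not independent of the values above. What threshold made these lists the sources used here do not say.

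Genes with 4-array profiles nearest to those of the 3 widest-ranging members were taken from 12127 named genes, by the Euclidean distance between profiles centred on their own mean. For Hlf these were Dhrs3, a retinaldehyde reductase (distance 0.56), Mmp3, a matrix metalloproteinase (0.58), and Slco4a1, an organic anion transporter (1.15). Dhrs3 had levels of 6.00, 8.07, 4.04 and 5.56 for untreated, IL17A, medium and both, and Mmp3 had 6.51, 8.27, 3.67 and 5.83. Each of the 3 genes was highest with IL17A and lowest with medium alone, as Hlf was. For Cry1 the nearest were Amigo2, an adhesion protein (0.32), Htra3, a serine protease (0.44), and Plcb1, a phospholipase C (0.53), all lowest with both agents. For Per3 they were Ptk2b, a tyrosine kinase (0.03), Tiparp, a mono-ADP-ribosyltransferase (0.06), and Ghr, the growth hormone receptor (0.07). A profile has only 4 points, all from the same arrays, and the distance is smaller for genes that vary less.

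**Figure D4:**
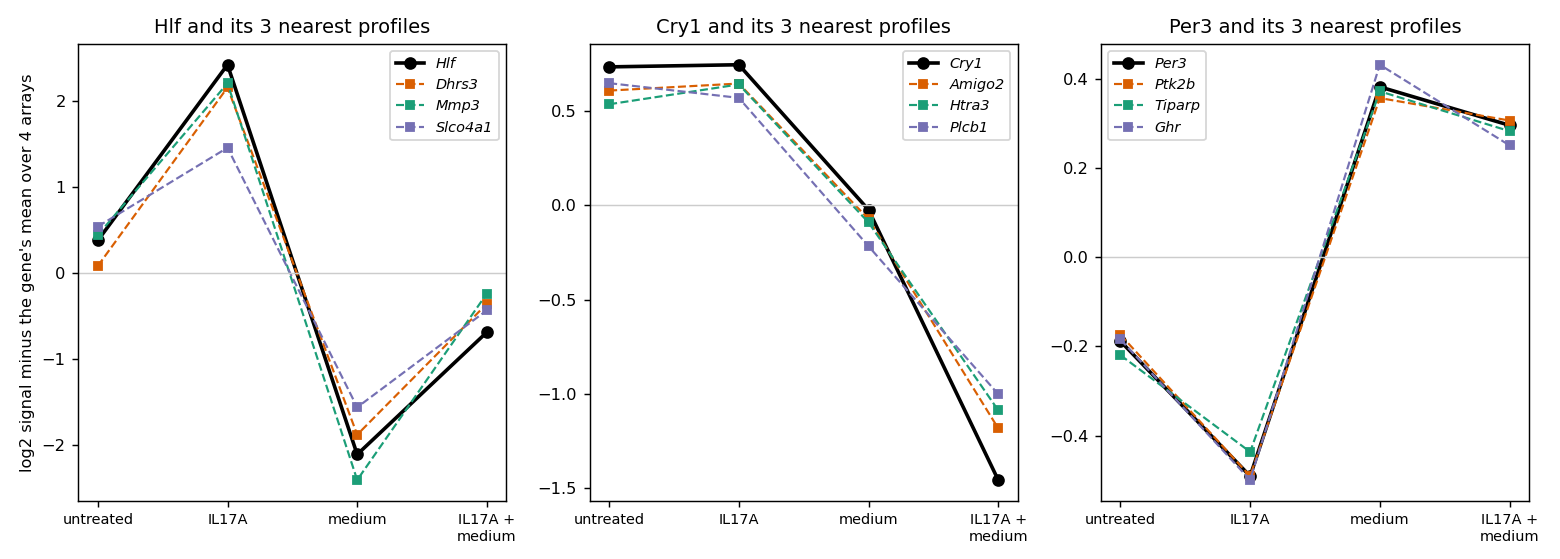
Log2 signal minus the gene's own mean over the 4 arrays (vertical axis) for Hlf, Cry1 and Per3 in black and the 3 genes nearest to each in colour, on the 4 arrays (horizontal axis). Vertical scales differ, and the profile of Hlf spans 4.52 while that of Per3 spans 0.87.

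Of the other core clock genes reported here, 9 were well above background on all 4 arrays, and Npas2 and Rorb on none. None of the 9 crossed 2-fold with IL17A or with medium alone, and 1 of 9 (Rora) was lower both for medium within IL17A and for both agents against untreated, where 3.12% and 4.29% of all genes were. Rora, the activator that competes with NR1D1 for ROR elements, had levels of 5.46 untreated, 5.79 with IL17A, 4.76 with medium and 4.39 with both. Its difference for medium within IL17A was -1.40, and like Cry1 it was lowest on the array with both agents. Nfil3, the repressor that binds the same D-boxes as the PAR bZIP proteins, had levels of 10.27, 11.25, 10.12 and 10.73. With IL17A it was higher by 0.98 without medium, just under 2-fold, and by 0.61 with it, and its highest level was on the IL17A array, as for Hlf.

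Clock, the partner of ARNTL, differed by -0.28 with IL17A and by -0.07 with medium. Cry2, the paralogue of Cry1, was higher by 0.65 with IL17A and had its lowest level, 6.43, in untreated cells, whereas Cry1 was lowest with both agents. Ciart, a repressor of the loop, differed by -0.74 for medium within IL17A, and Bhlhe41, an E-box repressor, by -0.80 for both agents against untreated. Arntl2 had differences from -0.16 to 0.29, Bhlhe40 from -0.14 to 0.05 and Timeless from -0.29 to 0.24. The median of the 9 genes was 0.24 for IL17A and -0.14 for medium, against 0.00027 and 0.040 over all genes. It was -0.12 for IL17A within medium and -0.29 for medium within IL17A, against -0.030 and 0.022, so the IL17A median changed sign.

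**Figure D5:**
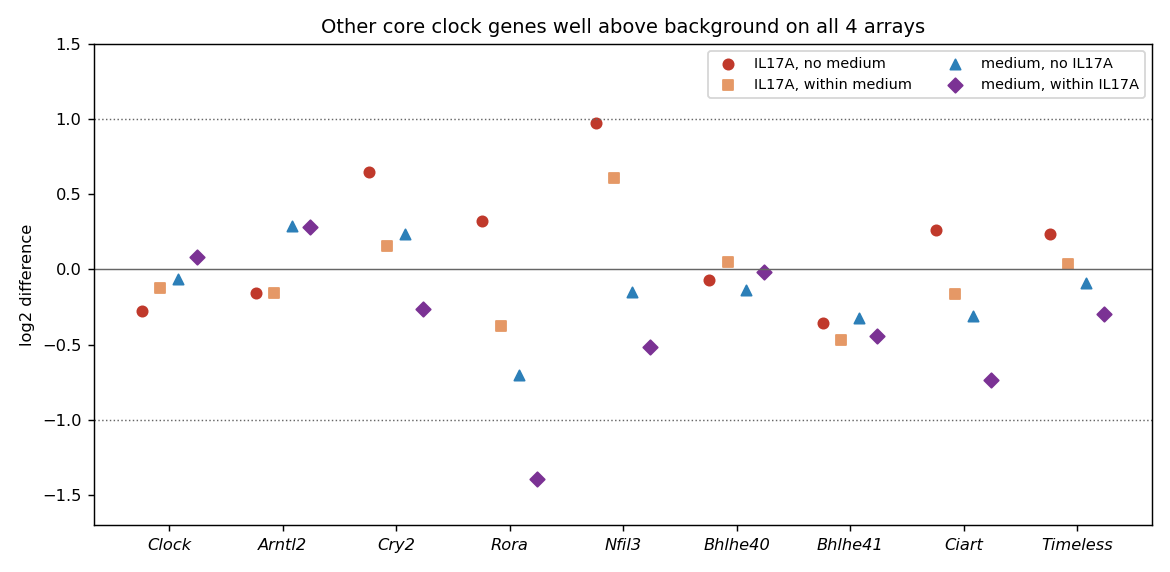
Log2 difference (vertical axis) of the 9 other core clock genes (horizontal axis) above background on all arrays, with 1 symbol for each of 4 comparisons and dotted lines at 2-fold. Rora with medium within IL17A, at -1.40, is the only point past a dotted line, and Nfil3 with IL17A lies just inside at 0.98.

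Genes that tune the clock were mostly level, while several immediate-early genes that set it were higher with medium alone. The shares of all genes called in these comparisons, given above, are 2.18% higher and 2.3% lower for IL17A and 2.45% and 2.98% for medium. Of 25 modifiers, 0 crossed 2-fold with IL17A, and with medium 1 was higher, Prkaa2 (an AMPK catalytic subunit, 1.26), and 1 lower, Ppargc1a (a coactivator of ROR receptors, -1.64). With both agents the Ppargc1a probe was not well above background, so the dim side was set to the lowest signal well above background on its array. Its level was then at least 5.97-fold below that with IL17A and at least 2.94-fold below that with medium. For IL17A within medium, Ppargc1a was thus the 1 of 25 modifiers called lower, and 0 were higher, beside 1.82% and 2.86% of all genes. Fbxl21, a ubiquitin ligase subunit for CRY proteins, was likewise at least 2.33-fold lower with both agents than with IL17A. Of 19 input genes, 4 were higher with medium and 0 lower: Egr1 (2.77), Fos (1.93), Egr2 (1.92) and Fosb (1.78). By sign alone, 11 of the 19 lay above 0 and 8 below. Fos and Fosb were dim in untreated cells, at levels of 3.78 and 2.98. For medium within IL17A, 2 of 19 were higher, Egr1 (2.47) and Egr2 (1.69), beside 3.23% of all genes. Fos (0.14) and Fosb (0.55) stayed under 2-fold there. Egr1 had levels of 8.72, 7.94, 11.49 and 10.41 for untreated, IL17A, medium and both. With IL17A alone, 1 of 19 (Fos, 1.19) was higher, but within medium the IL17A difference of Fos was -0.61 and 1 of 19, Egr1 (-1.08), was lower. Of 13 measured clock outputs, 2 were higher with medium, Ces2e (a carboxylesterase, 1.84) and Cdkn1a (a cell cycle inhibitor, 1.37), and 0 lower. For both agents against untreated, 2 of 12 were higher, Cdkn1a (1.49) and Ces2e (1.34), beside 3.38% of all genes. In that comparison 1 was lower, Wee1 (a cell cycle kinase, -1.21), beside 4.29%.

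Marker genes bear on what the cultures were. Of 15 stellate and fibroblast markers, 8 were well above background on all 4 arrays, with Acta2 between 13.24 and 13.45 and Vim between 15.04 and 15.63. Others of them varied: Dcn was 17.4-fold higher with IL17A, Pdgfrb (-1.25) and Col3a1 (-1.22) were past 2-fold lower with medium, and Col1a1 (-1.08) and Col1a2 (-1.49) were lower with both agents than untreated. Of this list, Reln, Hhip, Hand2 and Lum passed on no array, and Lrat, the vitamin A esterifying enzyme of stellate cells, passed only with both agents. Of 7 hepatocyte markers on the array, 0 passed on any array. Macrophage and leukocyte markers passed on all arrays in 3 of 7 and on none for Adgre1 and Clec4f. Ptprc, the pan-leukocyte CD45, passed only on the array with both agents, where Cry1 was lowest, at 3.73. With the dim side set as for Ppargc1a, it was at least 2.62-fold above untreated cells, 2.40-fold above medium and 1.99-fold above IL17A. Csf1r was 2.67-fold higher with IL17A, whereas Lyz2 differed by -0.42, Cd68 by 0.09 and Cd5l by 0.09. Endothelial markers passed on all arrays in 2 of 6 with Pecam1 and Cdh5 on none, and adipocyte ones in 1 of 6 with Adipoq and Plin1 on none. The adipocyte marker that passed, Fabp4, was 2.49-fold higher with IL17A. The 4 of 6 cholangiocyte and mesothelial markers that passed on all arrays had a median difference of -0.66 with IL17A and -0.16 with medium, and Krt19 went from 9.38 untreated to 7.99 with IL17A. Msln, a mesothelial marker, lay between 12.84 and 14.03 and was past 2-fold lower with both agents than untreated (-1.19). Sox9 was the 1 of these 4 above 0 in that comparison, at 0.48. The part of all these markers in the Hlf and Cry1 values was not tested. In bulk RNA, fewer cells with a transcript and less of it per cell cannot be told apart. As a check on the labels, 8 of 8 known IL-17A target genes were at least 2-fold higher with IL17A, both with and without medium. Over all genes the shares were 2.86% and 2.18%. This list too was chosen with earlier results of these arrays known, so the check is not independent of them.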

How the data were processed

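Total RNA of 4 IMS/N cultures was labelled with Cy3 and hybridised to 1-colour Agilent mouse arrays, 1 per group, per the labels. The authors deposited linear intensity values, which Feature Extraction 12.1.1.1 had corrected for background and spatial trend array by array per the file headers, with probe positions on mm9. Uncorrected mean and background intensity, deposited beside them, served for normexp. Spot flags (score columns of 0 or 1, deposited too) mark signal above background, saturation and outliers. Quantile normalization by the authors is named in the series design text and R 3.5.1 in the submitters' processing notes. Lists of the authors were also deposited, as probe names.

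Here quantile normalization over the 4 arrays was applied to log2 signals, without control spots and outlying spots (91 to 126 per array), and replicate spots were averaged. RefSeq accessions named 28696 of 41174 probes, current symbols 5761 and older symbols 163, while 6554 stayed as the array design names them. Each gene was read by its brightest probe. A gene was called at a log2 difference of 1 or more in size, if well above background on the brighter array, with a dim side raised to the lowest signal well above background there. With 1 array per group nothing was tested, and the number of arrays limits the precision.

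The members and gene lists were chosen with earlier results of these data known. All members and all other core clock genes are named, except a single gene of that list that is not reported here, with up to 4 genes of each further list by size of difference, of which the text takes the called ones, and the 3 nearest profiles of the 3 widest-ranging members. The technical SD was limited to spots above background after its values were seen. Alternatives were 75th percentile and median scaling, normexp (limma 3.58.1, R 4.3.3; offset 50), RefSeq-matched probes, thresholds of 1.5-fold and 4-fold, the mean over a gene's probes and other filters on dim signal. Python 3.11.15, pandas 2.3.3 and NumPy 2.4.6 did the rest, and the size rule was tried on simulated data. Only genes bright on all arrays entered the simulation, with changes planted in the middle of the range after a first run had missed some. It therefore does not cover dim signals such as those of Cry1, Per3 and, with medium, Hlf.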

Additional observations from a re-analysis of the deposited data

How the results depend on the processing

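No paired analysis was possible because each group has 1 array. Under normexp background correction, which adds an offset of 50, genes past 2-fold numbered 163 for IL17A, 98 for IL17A within medium, 159 for medium, 195 for medium within IL17A and 305 for both against untreated, and members 0, 0, 1 and 0 in the last 4 of these. In that order of comparisons, genes numbered 2065, 2061, 2297, 2491 and 2665 without a filter on dim probes, 1940, 2158, 2450, 2834 and 3207 at 1.5-fold, and 164, 129, 156, 128 and 261 at 4-fold. Members numbered 3, 4 and 4 at 1.5-fold in the last 3 comparisons, and at 4-fold 0 for IL17A within medium and 1 for both against untreated. Requiring signal on all 4 arrays left 407, 434 and 474 genes in the first 3 comparisons and 756 in the last. With RefSeq-matched probes only, 462 genes passed for IL17A within medium and 572 for medium within IL17A.

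Values of single members exist for 8 alternatives, 3 of which leave every member at its reported value because its probe is unaffected. The directions of Hlf held under these 8, from 1.40 to 2.20 for IL17A, 0.37 to 1.63 for IL17A within medium, -2.66 to -0.86 for medium and -3.22 to -1.89 for medium within IL17A. Those of Cry1 held for medium (-0.92 to -0.20), medium within IL17A (-2.20 to -0.50) and IL17A within medium (-1.43 to -0.29). With the mean of probes the members past 2-fold for IL17A within medium were again 2, but Hlf and Arntl (1.27) in place of Hlf and Cry1 (-0.92). Of 50 member differences between arrays, 14 changed sign under some alternative, the largest of them reported as 0.41 in size. Of 10 differences of differences, 6 changed sign, that of Arntl from -0.071 to 1.16 with the mean of probes. Among 270 alternative values that were not equal to the reported ones by construction, 168 lay within 1 technical SD of them. Median scaling over all probes moved the median of all genes to 0.20 for IL17A, -0.24 for IL17A within medium, 0.26 for medium and -0.16 for medium within IL17A. A median over spots above background was added after these values were seen, and it gave a median of -0.027 for IL17A and 0.043 for medium. Low signal limits Per3, Cry1 and, with medium, Hlf.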
